A study of Mus musculus with 64 samples.

Results

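The SOCS family holds the cytokine-induced brakes on JAK-STAT signalling, and its 8 members (Cish, Socs1, Socs2, Socs3, Socs4, Socs5, Socs6 and Socs7) were read by gene symbol from each count table, which lists 55809 genes. All 8 were present in every one of the 64 mouse RNA-seq libraries and all passed the filter on low counts (a mean of at least 10 reads) in each comparison. The largest differences in the family were those of Socs2. In Thy1.1+ cells without Foxp3 protein, Socs2 was higher in active than in resting cells. In active GFP Treg cells it lay below every other active group of the reversible experiment. Cish was the only member that passed the test between Foxp3-restored and Foxp3-deficient cells (over days 3 to 28), and it did so in resting cells.

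Cytokine receptors of the IL-2, IL-6 and interferon families have no kinase of their own and signal through bound JAK kinases, which phosphorylate STAT factors. STATs then switch on several SOCS genes, whose products carry an SH2 domain that binds phosphorylated receptors or JAKs and a SOCS box that recruits an Elongin B, Elongin C and Cullin 5 ubiquitin ligase, so that the pathway is turned down. In regulatory T (Treg) cells, which depend on IL-2 and STAT5, SOCS1 is known as a guard against excess interferon and IL-2 signals.

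In the degron mice, Foxp3 is fused to an auxin-inducible degron (AID), and a ZsGreen reporter and Cre are made from the same allele, so that TIR1(F74G), a plant ligase adaptor at ROSA26 behind a loxP-flanked stop, is expressed in cells that use this Foxp3 allele. All degron mice, the ROSA26 WT controls included, carried Foxp3AID and received 5-ph-IAA, the ligand of TIR1(F74G), for 7 days. The adult libraries came from heterozygous females as nascent thymic CD73- Treg cells or as active (CD62L-low CD44-high) Treg cells of spleen and lymph nodes, with 3 WT and 3 TIR1 libraries each. The header of each of these 12 tables names a library of the other genotype than the sample it is attached to in the records, and the header names were used. The infant libraries came from mice treated soon after birth, which the study describes as hemizygous Foxp3AID/y males, 4 titled WT and 4 titled TIR1. Their genotype labels state the reverse of their titles, so the infant groups are named by title and the direction of that comparison is not settled by the labels. The reversible mice were heterozygous Foxp3LSL/WT females, which also held Treg cells with wild-type Foxp3. Their Foxp3LSL allele reports Thy1.1 in place of Foxp3 until Cd4-CreERT2 and 4-OHT excise a stop and a Foxp3-GFP product is made. There, plusFoxp3 libraries came from mice with CreERT2, as GFP+ cells once treated, and minusFoxp3 libraries from Thy1.1+ cells of littermates without it, sorted as resting or active cells on days 0 (untreated), 3, 7, 14 and 28, with 2 libraries a group. GFP Treg cells, 2 libraries a state, came from another line, Foxp3GFP, in which Foxp3 was never withheld. The study describes the libraries of the adult degron and reversible groups as independent biological replicates. For the infant groups the sources used here do not say so, and their p-values measure the spread between these libraries, which may be technical.

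Library totals ran from 27753211 to 34029692 counted read pairs in the adult degron sets, from 33704114 to 55801009 in infants and from 35097257 to 57419138 in the reversible and GFP Treg sets. Foxp3 itself followed the reversible labels from day 3 on, but not on the untreated day 0. Over days 3 to 28 it lay at 448 to 615 CPM (read counts scaled to a common library total) in resting plusFoxp3 libraries against 47.3 to 81.5 in minusFoxp3 libraries, and at 426 to 594 against 44.3 to 63.4 in active cells. On day 0 the plusFoxp3 libraries, at 70.5 to 80.7 CPM in resting and 50.7 to 55.6 CPM in active cells, lay among the minusFoxp3 ones (67.9 to 77.0 and 46.2 to 65.3 CPM), so that no day 0 library is a Foxp3-restored one by this measure. The degron acts on the protein. Foxp3 mRNA was at 76.7 to 93.4 CPM in active TIR1 and 99.95 to 127 CPM in active WT libraries without overlap, a log2 fold change of -0.42 ± 0.16 (edgeR, adjusted p = 1.00), and at 144 to 168 and 144 to 181 CPM in the thymus. Ms4a1, which marks B cells, reached at most 1.84 CPM in any arm of the reversible and GFP Treg sets, and Ncr1, which marks NK cells, at most 0.427 CPM. Their lists as a whole were not so low. In these sets the 6 genes of the B cell list summed to 229 to 3970 CPM, and the 6 CD8 and NK cell markers to 14.0 to 71.7 CPM. Rag1, Rag2 and Ptcra, genes of immature thymocytes, were at 0 in the 3 thymic WT libraries, whereas Ccr9 was at 99.5 to 124 CPM there and at 137 to 209 CPM in active WT libraries. Of the same list, Cd8a was at 4.45 to 7.16 CPM in thymic and at 0 in active WT libraries, and Cd8b1 at 46.9 to 55.9 CPM and 11.1 to 15.3 CPM. The 4 markers of resting T cells summed to 4771 to 5909 CPM in resting and 963 to 1965 CPM in active minusFoxp3 libraries, and the 4 of active T cells to 194 to 359 CPM and 867 to 1393 CPM. Without infant titled WT replicate 4, 1774 of 16136 genes were called in the infant comparison, and 3 of 16209 with it. The check of member levels for outliers did not flag this library. It was singled out from the measured values, and infant results are given with and without it. In bulk samples, fewer cells of a type and less RNA per cell cannot be told apart.

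The windows around the starts of Cish, Socs2, Socs1 and Socs3 are shown because these 4 members gave nearly all calls below. In GRCm39, as the files give it, Cish lies at chr9:107173225-107179983 on the plus strand, and Socs1 at chr16:10600104-10603400, Socs2 at chr10:95221224-95253042 and Socs3 at chr11:117856905-117860873 on the minus strand. Each window runs from 250 bases before to 50 after a start, 5′ to 3′ on the gene's strand in GRCm39. Those of Cish (chr9:107173608-107173907, plus strand), Socs1 (chr16:10603351-10603650, minus strand) and Socs3 (chr11:117860143-117860442, minus strand) are RefSeq windows of the GRCm38.p6 table, placed in GRCm39 by exact match. That of Socs2 (chr10:95252923-95253222, minus strand) is set on the canonical start in GENCODE vM39. Capitals mark TTCNNNGAA, the core of STAT-bound sites, which reads the same on both strands.
Cish: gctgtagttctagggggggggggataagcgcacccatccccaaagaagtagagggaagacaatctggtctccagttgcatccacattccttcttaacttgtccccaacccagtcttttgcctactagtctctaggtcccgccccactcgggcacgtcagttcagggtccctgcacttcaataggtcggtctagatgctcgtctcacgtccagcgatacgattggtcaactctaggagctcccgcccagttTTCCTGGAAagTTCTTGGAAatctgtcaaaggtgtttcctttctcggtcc
Socs2: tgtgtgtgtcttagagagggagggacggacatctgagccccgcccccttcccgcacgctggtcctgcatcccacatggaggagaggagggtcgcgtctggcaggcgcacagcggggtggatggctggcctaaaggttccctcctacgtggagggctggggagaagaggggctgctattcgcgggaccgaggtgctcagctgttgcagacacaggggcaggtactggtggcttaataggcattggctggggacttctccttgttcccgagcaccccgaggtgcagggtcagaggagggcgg
Socs1: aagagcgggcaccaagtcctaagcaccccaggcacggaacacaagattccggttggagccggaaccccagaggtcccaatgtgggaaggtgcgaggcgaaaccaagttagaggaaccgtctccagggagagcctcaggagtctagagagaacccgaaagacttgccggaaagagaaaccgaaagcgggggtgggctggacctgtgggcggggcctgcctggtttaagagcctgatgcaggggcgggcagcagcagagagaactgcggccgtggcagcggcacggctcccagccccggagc
Socs3: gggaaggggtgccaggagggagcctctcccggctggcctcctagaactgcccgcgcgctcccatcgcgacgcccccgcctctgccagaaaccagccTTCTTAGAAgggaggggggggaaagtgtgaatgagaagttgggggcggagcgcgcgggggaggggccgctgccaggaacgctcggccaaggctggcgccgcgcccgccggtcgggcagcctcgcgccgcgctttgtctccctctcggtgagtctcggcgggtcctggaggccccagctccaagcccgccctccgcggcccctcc
Cish held 2 matches, TTCCTGGAA from base 1 and TTCTTGGAA from base 12 of the transcript. Socs3 held 1 match, TTCTTAGAA, which begins 154 bases before the start. Socs1 and Socs2 held none in these windows, and none of the 4 held the wider form with 4 free bases between TTC and GAA. TTCNNNGAA was found in 8.30% of the 32851 RefSeq windows of the same length and in 8.81% of 21770 GENCODE canonical windows, and the wider form in 6.95% and 6.81%. The Cish and Socs3 windows lie wholly within the gene spans given above, whose outer ends are further upstream and outside these windows. These matches are descriptions of sequence and no binding was measured.

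The members fell into an abundant and a scarce set when levels were scaled for gene length (CPM per kb of exons). In resting reversible and GFP Treg libraries (n = 22) the median level was 116 CPM per kb for Socs3 (range 64.5 to 149), 88.6 for Socs1, 24.0 for Cish and 13.7 for Socs2. Socs4, Socs6, Socs5 and Socs7 followed at 3.27, 2.62, 1.93 and 0.983 CPM per kb. In active libraries (n = 22) Socs3 was again first at 90.3 CPM per kb, but Socs2 came next at 57.3, ahead of Socs1 at 56.3 and Cish at 31.5. Socs4 to Socs7 lay between 0.984 and 3.32 CPM per kb there. In thymic libraries (n = 6) Socs1 stood first at 170.0 CPM per kb, Cish next at 54.4 and Socs3 after it at 10.5. Socs2, at 2.22 CPM per kb, sat among the scarce members in the thymus. Degron libraries were counted with a mapping quality filter that the others lack, so their levels are not compared with those of the reversible sets.

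**Figure D1:**
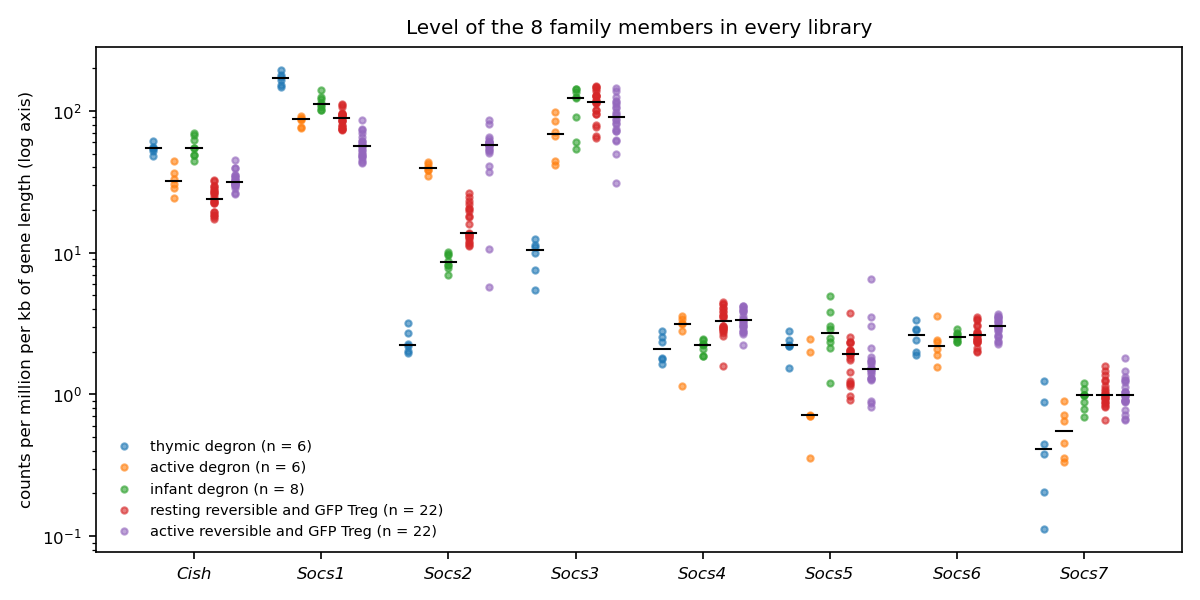
CPM per kb of gene length (vertical log axis) of the 8 members in each library, by library set (colours), with bars at set medians. Cish, Socs1 and Socs3 stay at or above 17.3 outside the thymus, Socs4 to Socs7 stay at or below 6.51, and Socs2 and Socs3 are the members that spread over most of the range between sets.

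The first comparison asked how the family differed between active and resting cells that had no Foxp3 protein. Socs2, a SOCS protein known for restraining growth hormone receptor signalling, was measured at 500 to 828 CPM (median 579) in the 10 active minusFoxp3 libraries and at 107 to 252 CPM (median 170) in the 10 resting ones. The groups did not overlap. Over the 5 days, Socs2 was higher in active cells by a log2 fold change of 1.90 ± 0.13 (SE), a 3.74-fold difference (edgeR quasi-likelihood test, adjusted p = 1.67e-12). Cish, which binds the IL-2 receptor beta chain and is a classical STAT5 target, ranged from 192 to 252 CPM in active and from 111 to 150 CPM in resting libraries, again without overlap. Its log2 fold change was 0.67 ± 0.09 (edgeR, adjusted p = 6.36e-07). Absence of overlap was seen for Cish and Socs2, and for 10.7% of the 20790 genes tested.

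Socs1 and Socs3, which inhibit JAK kinases directly, were lower in active minusFoxp3 cells. Socs1 lay at 124 to 217 CPM (median 158) in active and 213 to 276 CPM (median 240) in resting libraries, a log2 fold change of -0.59 ± 0.08 (edgeR, adjusted p = 3.54e-07). Socs3 lay at 89.6 to 324 CPM (median 213) against 194 to 424 CPM (median 324), a log2 fold change of -0.59 ± 0.15 (edgeR, adjusted p = 0.00203). Both pairs of groups overlapped, Socs1 only at the edge and Socs3 widely. Hence 4 of 8 members passed the test, 2 in each direction, against 37.9% of all genes tested (19.6% higher and 18.3% lower). The median log2 fold change of the members was 0.0006, beside -0.03 over all genes. All 4 calls held when each of the 20 libraries was left out in turn. Socs6 missed the threshold at a log2 fold change of 0.25 ± 0.11 (edgeR, adjusted p = 0.0649), with 29.2 to 42.1 CPM in active and 22.4 to 40.1 CPM in resting cells. It passed without any 1 of 4 libraries (active day 7 replicate 1, resting day 0 replicate 2, resting day 3 replicate 2 or resting day 28 replicate 1), with an adjusted p down to 0.0249. The summed level of 7 myeloid markers was 4.92 to 44.6 CPM in active and 2.14 to 23.5 CPM in resting minusFoxp3 libraries. The 6 genes of the B cell list summed to 229 to 412 CPM in active and 513 to 671 CPM in resting ones, without overlap. The part of these lists in these differences was not tested.

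The same difference between states was then set beside that of GFP Treg cells, a test of the difference that was chosen after the values were seen. Socs2 measured 54.9 and 101 CPM in the active GFP Treg libraries and 108 and 113 CPM in the resting ones, so that the active libraries were the lower pair. The active against resting log2 fold change of Socs2 in GFP Treg cells was -0.52 ± 0.28, which did not pass (edgeR, adjusted p = 0.404). It differed from that of minusFoxp3 cells by a log2 value of -2.42 ± 0.32 (edgeR, adjusted p = 1.61e-05). That was the only call among the 8 members, beside 4.89% of all genes, and it held with each of 24 libraries left out, with log2 values from -2.92 to -2.05. For Socs1 the active GFP Treg libraries (214 and 250 CPM) again lay below the resting ones (311 and 322 CPM), although the log2 fold change of -0.47 ± 0.17 did not pass (edgeR, adjusted p = 0.153). No member passed between active and resting GFP Treg cells, against 3.12% of all genes. The lines differ in allele as well as in Foxp3 history, and these cannot be told apart here.

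Active GFP Treg cells were next compared with untreated Foxp3-deficient active cells, in comparisons that share their libraries with each other and with the test above. Socs2 was at 626 and 579 CPM in the latter (minusFoxp3, day 0), and its log2 fold change to GFP Treg cells was -2.92 ± 0.25 (edgeR, adjusted p = 9.88e-07). Even against plusFoxp3 cells on day 28, at 390 and 353 CPM, active GFP Treg cells were lower in Socs2, with a log2 fold change of -2.25 ± 0.25 (edgeR, adjusted p = 4.81e-05). In the order of the 11 active groups by mean level, GFP Treg cells came last at 78.1 ± 32.9 CPM (SD, n = 2) and plusFoxp3 day 28 next to last at 372 ± 26.4 CPM (SD, n = 2). Neither overlapped the group above it. The other 9 groups had means of 515 to 686 CPM, and each overlapped its neighbour. Active WT Treg cells of the degron mice, which kept Foxp3 protein, were at 362 to 416 CPM for Socs2. They were counted with the mapping quality filter and are not part of this order, so low Socs2 is not shown here for active Treg cells in general.

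Socs5 and Socs1 went the other way. Socs5, a SOCS protein linked to IL-4 receptor and EGF receptor turnover, measured 41.7 and 22.7 CPM in active GFP Treg cells and 8.34 and 9.59 CPM in active minusFoxp3 cells on day 0, a log2 fold change of 1.87 ± 0.33 (edgeR, adjusted p = 0.00107). Socs1 measured 214 and 250 CPM against 138 and 132 CPM, a log2 fold change of 0.81 ± 0.18 (edgeR, adjusted p = 0.00632). The Socs1 call was lost without active GFP Treg replicate 2 (adjusted p = 0.0702) and without day 0 minusFoxp3 replicate 2 (adjusted p = 0.0647), where the lone library left is assumed to vary like the other groups. Socs3 measured 303 and 399 CPM in active GFP Treg cells and 143 and 217 CPM on day 0, which did not pass at a log2 fold change of 0.98 ± 0.32 (edgeR, adjusted p = 0.0666) but was called by DESeq2. Thus 3 of 8 members were called, 2 higher and 1 lower, against 5.21% of all genes called higher and 4.79% called lower, and the groups did not overlap for 4 members and for 48.0% of all genes. Against plusFoxp3 day 28, Socs2 alone was called, beside 2.01% of all genes (1.63% lower), and Socs1, Socs2, Socs5 and Socs6 did not overlap, as for 43.0% of all genes. Socs5, at 10.6 and 19.6 CPM on that day, missed the threshold at a log2 fold change of 1.10 ± 0.32 (edgeR, adjusted p = 0.108), which fell to 0.0367 at the lowest when GFP Treg replicate 2 or day 28 replicate 2 was left out.

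In resting cells no member was called between GFP Treg cells and minusFoxp3 day 0 cells, against 2.91% of 20520 genes, with Cish at an unadjusted p of 0.0475. By DESeq2 none was called either. Cish, Socs1, Socs2 and Socs5 did not overlap between these groups of 2, as for 41.0% of all genes. Socs2 was at 108 and 113 CPM in resting GFP Treg cells and at 193 and 130 CPM on day 0, a log2 fold change of -0.53 ± 0.30 (edgeR, adjusted p = 0.529). Against resting plusFoxp3 cells on day 28 none was called, beside 0.0341% of all genes, by edgeR or by DESeq2, and none had an unadjusted p under 0.05. Socs1, Socs2, Socs4 and Socs5 did not overlap there, as for 30.6% of all genes.
The B cell list moved with the GFP Treg label. Its 6 genes summed to 3815 to 3970 CPM in active GFP Treg libraries against 229 to 412 CPM in active minusFoxp3 libraries. Nearly all of that was Ighm, at 3754 to 3902 CPM, whereas Ms4a1 was at 0.190 to 1.43 CPM in the same GFP Treg libraries. The part of Ighm-bearing transcripts in the Socs2, Socs5 and Socs1 differences was not tested.

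**Figure D2:**
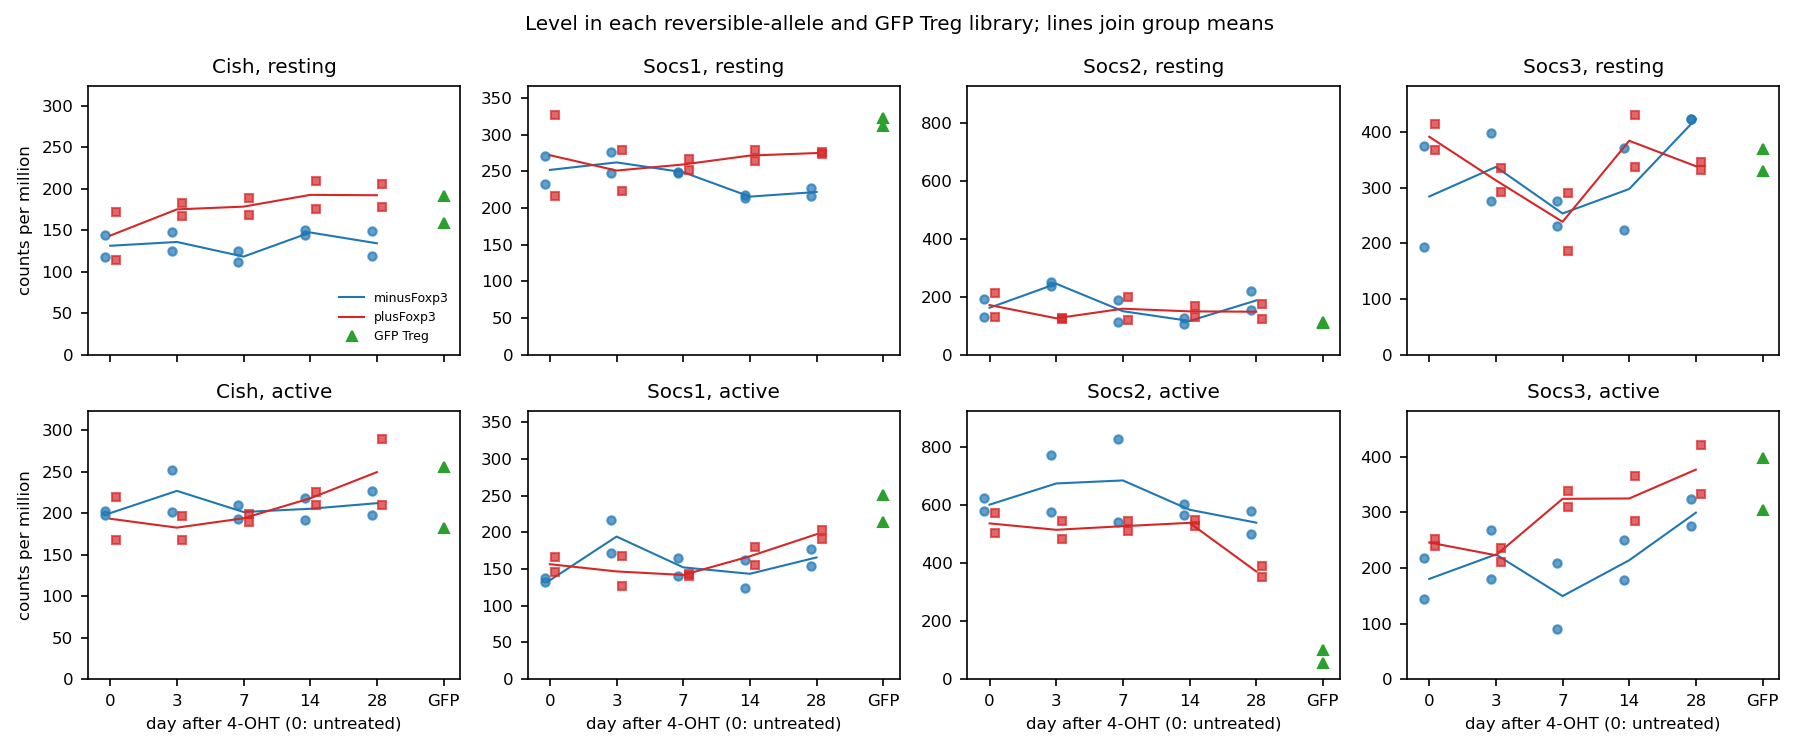
CPM (vertical axes, from 0) of Cish, Socs1, Socs2 and Socs3 in resting (top) and active (bottom) cells by day after 4-OHT, with minusFoxp3 (blue circles), plusFoxp3 (red squares) and GFP Treg (green triangles) libraries as points and group means joined by lines. Resting plusFoxp3 libraries of days 3 to 28 lie above all minusFoxp3 libraries of those days for Cish, and the active GFP Treg libraries lie at 54.9 and 101 CPM for Socs2.

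The reversible allele asked what restoring Foxp3 to Foxp3-deficient cells did to the family. In resting cells Cish was higher after restoration. On day 3 it measured 183 and 168 CPM in plusFoxp3 and 147 and 124 CPM in minusFoxp3 libraries. On day 7 the values were 168 and 188 CPM against 125 and 111 CPM. On day 14 they were 210 and 175 CPM against 144 and 150 CPM. On day 28 they were 178 and 206 CPM against 149 and 119 CPM. The plusFoxp3 libraries thus lay above the minusFoxp3 libraries on each of these 4 days, and over the 4 days together the range of 168 to 210 CPM did not meet that of 111 to 150 CPM. Among all genes tested 1.44% showed such a separation over the same 8 and 8 libraries. On day 0, before treatment, plusFoxp3 libraries (173 and 114 CPM) straddled the minusFoxp3 ones (118 and 145 CPM).

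Averaged over days 3 to 28, the log2 fold change of Cish in resting cells was 0.49 ± 0.10, a 1.41-fold difference (edgeR, adjusted p = 0.00661), and this was the 1 call among 8 members, against 4.73% of all genes (2.99% higher). The call held with each of the 16 libraries left out (adjusted p from 0.00586 to 0.0228). On single days, with 2 libraries a group, the log2 fold changes were 0.43 on day 3, 0.58 on day 7, 0.43 on day 14 and 0.54 on day 28, each ± 0.20 (SE), and none passed (edgeR, adjusted p of 0.356 to 0.600). The resting GFP Treg libraries, at 158 and 191 CPM, fell among the restored ones. In the order of the 11 resting groups by mean Cish, the plusFoxp3 groups of days 14, 28, 7 and 3 and GFP Treg cells took the first 5 places at 175 to 193 CPM. Each of these overlapped its neighbour, and the GFP Treg group did not overlap the day 14 minusFoxp3 group below it (147 ± 4.64 CPM, SD, n = 2). The B cell list summed to 586 to 1657 CPM in resting plusFoxp3 and 513 to 671 CPM in minusFoxp3 libraries, again through Ighm, with Ms4a1 at 0.0194 to 1.70 CPM in plusFoxp3 libraries. The active T cell markers summed to 131 to 760 CPM (median 331) in resting plusFoxp3 and 194 to 359 CPM (median 256) in resting minusFoxp3 libraries, and the resting T cell markers to 3553 to 5691 CPM (median 4688) and 4771 to 5909 CPM (median 5481). The part of these lists in the Cish difference was not tested.

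Active cells showed no such separation for Cish. Over days 3 to 28 it measured 168 to 289 CPM (median 205) in plusFoxp3 and 192 to 252 CPM (median 206) in minusFoxp3 libraries, a log2 fold change of 0.02 ± 0.10 (edgeR, adjusted p = 0.968). The test of the difference between the states gave a log2 value of -0.49 ± 0.14, which missed the threshold in the fit used here (edgeR, adjusted p = 0.0707). No member passed that test, against 1.82% of all genes, while Cish and Socs3 had unadjusted p-values under 0.05 (0.00167 and 0.0276). Cish was called in this test by DESeq2, in the fit of the compared groups alone, with the replicate block and without the filter on low counts. Without active plusFoxp3 replicate 1 of day 28, Cish passed as well (adjusted p = 0.0363).

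Among the other members in active cells, Socs3 and Socs2 came nearest to the threshold. Socs3 measured 210 and 236 CPM in plusFoxp3 and 180 and 269 CPM in minusFoxp3 libraries on day 3. On day 7 it was at 339 and 310 CPM against 89.6 and 209 CPM. On days 14 and 28 it was at 285 and 365 CPM against 178 and 249 CPM, and at 332 and 422 CPM against 275 and 324 CPM. The plusFoxp3 libraries lay above on days 7, 14 and 28, and also on the untreated day 0 (239 and 253 CPM against 143 and 217 CPM). The share of all genes that separated on these single days is not given here. In the GFP Treg comparisons above, also 2 against 2 libraries, it was 30.6% to 48.0%. The log2 fold change over days 3 to 28 was 0.54 ± 0.16, just outside the threshold (edgeR, adjusted p = 0.0567), and DESeq2 called it. It also passed without minusFoxp3 replicate 2 of day 3 or of day 7 (lowest adjusted p = 0.00259). In resting cells the Socs3 value was -0.01 ± 0.15 (edgeR, adjusted p = 0.976), with the ranges of 186 to 432 CPM and 224 to 424 CPM nearly the same. The difference between the states, 0.54 ± 0.23, did not pass either (edgeR, adjusted p = 0.302). Over days 0 to 28 the B cell list summed to 316 to 2381 CPM (median 1253) in active plusFoxp3 libraries. In active minusFoxp3 libraries it summed to 229 to 412 CPM (median 328). By median, the active T cell markers summed to 1552 against 1002 CPM and the resting ones to 1172 against 1704 CPM. The myeloid markers summed to 6.96 against 21.0 CPM, and the ranges of each list overlapped. The part of these lists in the Socs3 and Socs2 values was not tested.

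Socs2 was at 353 to 549 CPM (median 520) in active plusFoxp3 and 500 to 828 CPM (median 578) in active minusFoxp3 libraries over days 3 to 28. Its log2 fold change of -0.33 ± 0.12 did not pass (edgeR, adjusted p = 0.130), and did without minusFoxp3 replicate 2 of day 7 (adjusted p = 0.0406). The plusFoxp3 libraries lay below on days 3, 14 and 28 and on the untreated day 0. In resting cells Socs2 showed its widest gap on day 3, at 127 and 123 CPM against 252 and 237 CPM, with a log2 fold change of -0.90 ± 0.30 that did not pass (edgeR, adjusted p = 0.347). On day 14 the order was turned, at 169 and 129 CPM against 107 and 125 CPM. Socs1 in resting cells lay above on days 7, 14 and 28, by 0.19 ± 0.08 on the log2 scale over days 3 to 28 (edgeR, adjusted p = 0.250), and in active cells by 0.02 ± 0.09 (edgeR, adjusted p = 0.959). As for Socs3, the share of all genes that separated on the single days named for Socs2 and Socs1 is not given here.
In active cells edgeR called none of the 8 members over days 3 to 28, against 6.22% of 20776 genes, with 3 at an unadjusted p under 0.05. DESeq2 called 1, Socs3, and its share of all genes is not given here. No member was without overlap over the 8 and 8 libraries, against 1.39% of all genes. On single days none was called in either state, while the shares of all genes called on days 0, 3, 7, 14 and 28 were 0.00487%, 0.0487%, 0.0585%, 0.268% and 0.945% in resting cells. In active cells they were 0.00481%, 0.274%, 0.568%, 0.732% and 1.85%. On day 7 in active cells Socs3 had a log2 fold change of 1.16 ± 0.32 (edgeR, adjusted p = 0.148), and DESeq2 called it, as did edgeR without minusFoxp3 replicate 2 (log2 fold change 1.90, adjusted p = 0.00518). Without minusFoxp3 replicate 1 the value was 0.68 (edgeR, adjusted p = 0.823).

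**Figure D3:**
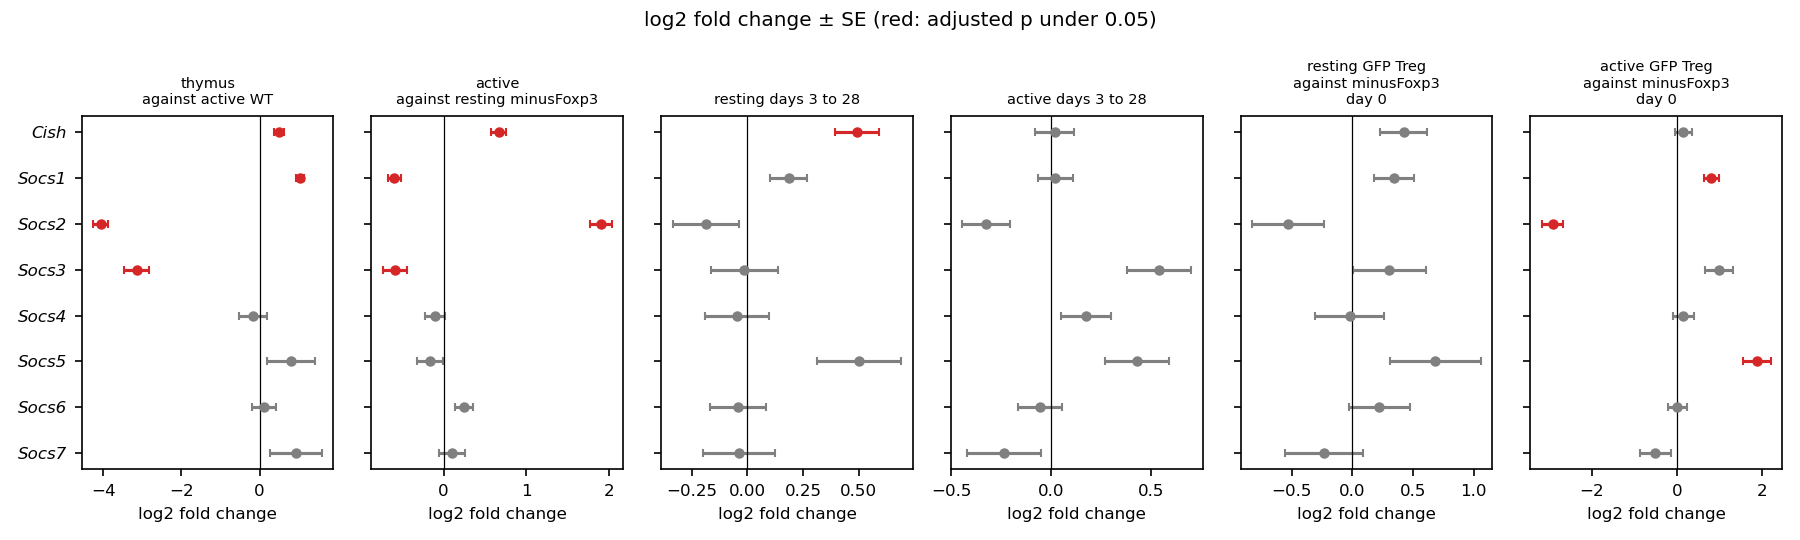
log2 fold changes (points) with their standard errors (bars) of the 8 members in 6 comparisons, each panel with its own horizontal axis. Red points passed the test, 4 members in the 2 left panels, Cish alone for resting days 3 to 28, none for active days 3 to 28 or for resting GFP Treg cells, and Socs1, Socs2 and Socs5 for active GFP Treg cells.

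Among the degron mice, nascent thymic and active WT Treg cells were compared in mice without TIR1. Socs2 measured 21.4, 30.5 and 20.9 CPM in thymic and 362, 416 and 365 CPM in active cells, a log2 fold change of -4.06 ± 0.19 (edgeR, adjusted p = 6.08e-08). Socs3 measured 36.1, 21.8 and 28.9 CPM against 193, 282 and 245 CPM, a log2 fold change of -3.15 ± 0.31 (edgeR, adjusted p = 1.71e-05). Both were thus far lower in the thymus. Socs1 was higher there, at 522, 566 and 508 CPM against 253, 256 and 220 CPM, with a log2 fold change of 1.04 ± 0.11 (edgeR, adjusted p = 2.01e-05). Cish was higher too, at 348, 393 and 359 CPM against 213, 285 and 234 CPM, by 0.49 ± 0.12 on the log2 scale (edgeR, adjusted p = 0.0107). These 4 of 8 members were called, 2 in each direction, against 23.0% of 14769 genes (9.22% higher and 13.8% lower), and the same 4 did not overlap, as for 36.9% of all genes. The calls held with each of the 6 WT libraries left out. The groups differ in activation state as well as in tissue. The resting T cell markers summed to 6619 to 7308 CPM in thymic and 1918 to 2029 CPM in active WT libraries. The active T cell markers summed to 219 to 279 CPM and 1470 to 1727 CPM. Tissue, maturity and activation state cannot be told apart here. The Ighm-led B cell list summed to 179 to 193 CPM in thymic and 1093 to 1517 CPM in active WT libraries, with Ms4a1 at 0 in the active ones, and its part was not tested.

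Loss of Foxp3 protein was compared within each adult tissue. No member was called in thymic cells, where edgeR called no gene at all (0% of 14245 genes, with 1050 at an unadjusted p under 0.05). By DESeq2 the study found more changed genes in these cells than in resting or activated Treg cells. The 0% of edgeR is thus no sign that Foxp3 loss changed nothing. Here DESeq2 called no member, and its share of all genes is not given. Socs1 measured 429, 443 and 480 CPM in TIR1 and 522, 566 and 508 CPM in WT libraries, all TIR1 libraries below, with a log2 fold change of -0.24 ± 0.07 (edgeR, adjusted p = 0.566). It was the 1 member without overlap, against 13.0% of all genes. Cish lay at 309, 350 and 337 CPM against 348, 393 and 359 CPM, which overlapped.

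In active cells Cish was at 195, 183 and 157 CPM in TIR1 and 213, 285 and 234 CPM in WT libraries, with a log2 fold change of -0.49 ± 0.16 (edgeR, adjusted p = 1.00). Socs3 was at 204, 127 and 121 CPM against 193, 282 and 245 CPM, by -0.71 ± 0.23 on the log2 scale (edgeR, adjusted p = 1.00). TIR1 libraries were all below WT for Cish, and 1 TIR1 library exceeded 1 WT library for Socs3. The resting T cell markers summed to 2317 to 2763 CPM in TIR1 and 1918 to 2029 CPM in WT libraries, the B cell list to 939 to 1021 CPM and 1093 to 1517 CPM, and the 6 CD8 and NK cell markers to 25.8 to 39.6 CPM and 19.9 to 24.9 CPM. None of these sums overlapped between the genotypes, and their part in the Cish and Socs3 values was not tested. Socs1 (223, 269 and 261 CPM against 253, 256 and 220 CPM) and Socs2 (385, 333 and 405 CPM against 362, 416 and 365 CPM) overlapped fully. Socs7, an adaptor protein linked to insulin signalling, was at 6.61, 4.77 and 5.31 CPM against 2.63, 3.36 and 2.48 CPM. Cish and Socs7 were the 2 members without overlap, against 10.1% of all genes. No member was called (0% of 14554 genes by edgeR, 672 genes and 2 members at an unadjusted p under 0.05), and DESeq2 called none. The deposited records attach the files of these adult libraries to samples of the opposite genotype from the library names in the file headers. The header names were used, and with the recorded attachment each of these differences turns its sign. By header name, Il2ra was at 280 to 305 CPM in active TIR1 and 409 to 504 CPM in active WT libraries, a gene singled out after its values were seen. The study reports, from flow cytometry, less of its protein CD25 on activated Treg cells after Foxp3 degradation.

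Infant Cish measured 452, 351, 432 and 402 CPM in titled TIR1 and 315, 313, 287 and 350 CPM in titled WT libraries, and the groups did not overlap. Its log2 fold change, titled TIR1 minus titled WT, was 0.39 ± 0.09 and missed the threshold (edgeR, adjusted p = 0.0918). Without titled WT replicate 4, the highest of its group, it was 0.45 ± 0.09 and passed (edgeR, adjusted p = 0.00722). Socs3 measured 415, 360, 396 and 357 CPM against 263, 175, 155 and 411 CPM, with the value of 411 in titled WT replicate 4. Its log2 fold change was 0.63 ± 0.28 (edgeR, adjusted p = 0.295), and 0.97 ± 0.15 without that library (edgeR, adjusted p = 0.00131). Socs5 measured 15.1, 16.1, 13.7 and 7.72 CPM against 31.9, 18.5, 24.3 and 19.4 CPM without overlap, and its log2 fold change was -0.82 ± 0.24 (edgeR, adjusted p = 0.126), or -0.90 ± 0.24 without replicate 4 (edgeR, adjusted p = 0.0287). With all libraries edgeR called 0 of 8 members and 0.0185% of 16209 genes, and 2 members had an unadjusted p under 0.05. DESeq2 called Cish and Socs5. Its share of all genes is not given here, so its 2 calls cannot be set against the edgeR share. By DESeq2 the study reports far more changed genes in infant than in mature adult Treg cells. Without replicate 4, 3 of 8 members were called, against 11.0% of 16136 genes. Cish and Socs5 were the members without overlap, against 8.73% of all genes. The 4 markers of active T cells summed to 482 to 672 CPM in titled TIR1 libraries and to 183 to 520 CPM in titled WT libraries. In the same order, the 6 CD8 and NK cell markers summed to 21.9 to 24.0 CPM and 16.5 to 19.9 CPM, without overlap. The B cell list summed to 347 to 449 CPM and 283 to 347 CPM, which met at the edge. The part of these lists was not tested.

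**Figure D4:**
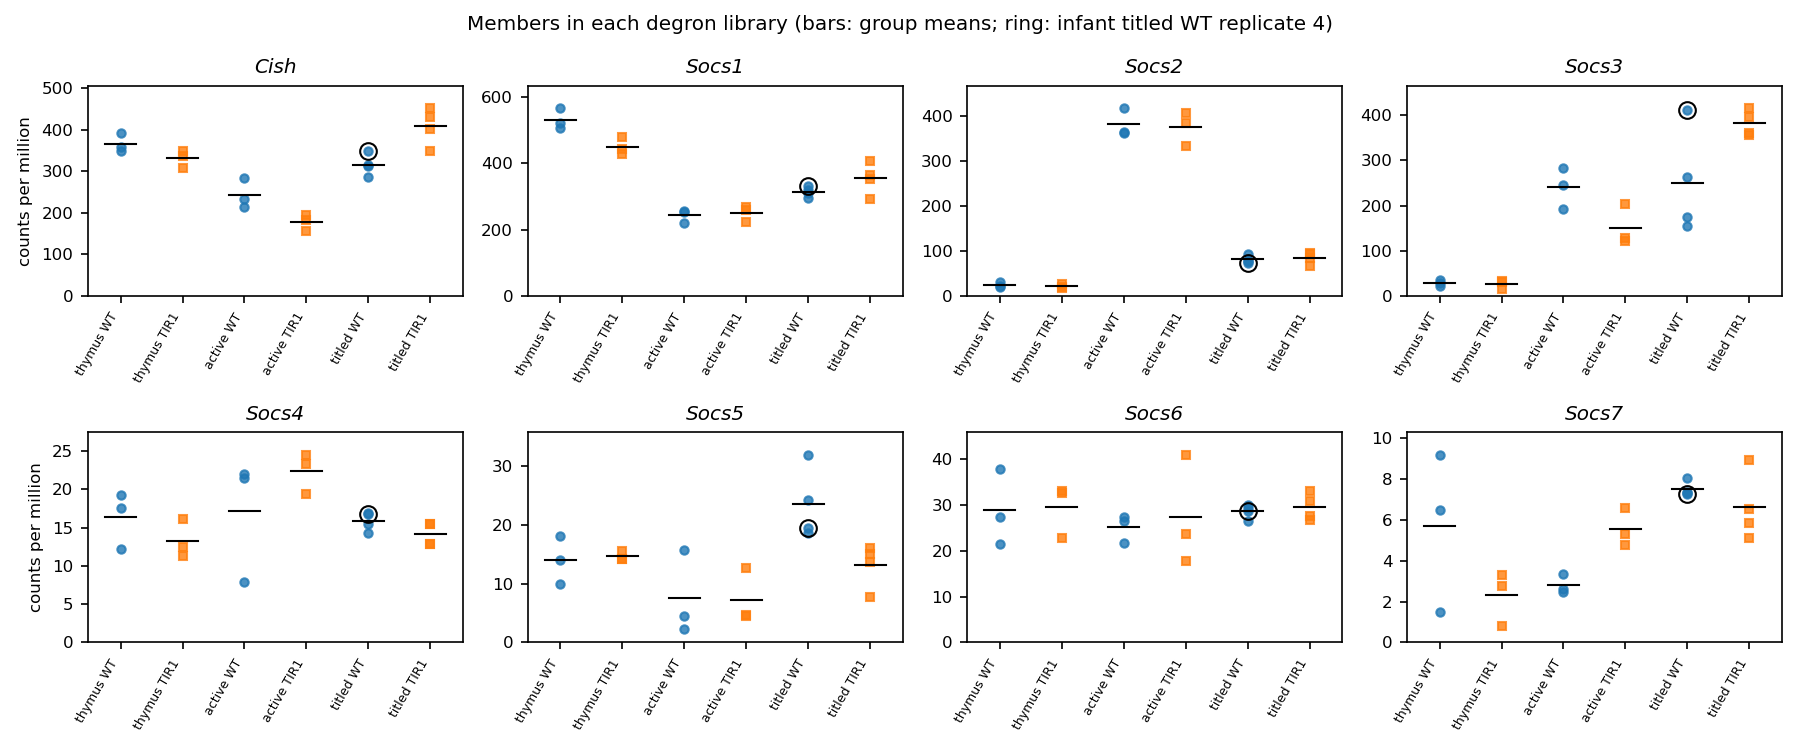
CPM (vertical axes, from 0) of each member in the degron libraries, with WT or titled WT libraries as blue circles, TIR1 or titled TIR1 libraries as orange squares, bars at group means and a ring around infant titled WT replicate 4. The ringed library has 411 CPM for Socs3, among the titled TIR1 values, and Socs2 and Socs3 are low in the thymic groups.

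Socs4, Socs6 and Socs7, the members least tied to cytokine induction, stayed scarce in all sets. In the 44 reversible and GFP Treg libraries Socs4 ranged from 11.0 to 30.8 CPM, Socs6 from 22.4 to 42.1 CPM and Socs7 from 4.88 to 13.4 CPM. In the degron sets Socs4 ranged from 7.92 to 24.5 CPM, Socs6 from 17.7 to 40.9 CPM and Socs7 from 0.823 to 9.18 CPM. None of the 3 passed the edgeR test in any comparison, although Socs4 passed for day 0 in resting cells without plusFoxp3 replicate 2 (adjusted p = 0.0190). Socs5 was higher over days 3 to 28 in plusFoxp3 cells of both states without passing, by 0.50 ± 0.19 in resting (edgeR, adjusted p = 0.165) and 0.43 ± 0.16 in active cells (edgeR, adjusted p = 0.147) on the log2 scale. Its levels were 7.69 to 15.1 CPM against 5.87 to 14.8 CPM in resting and 8.22 to 19.6 CPM against 5.24 to 13.7 CPM in active cells, with wide overlap.

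The rest of the pathway was read from 61 listed genes, all of which were tested in the reversible sets. Between active and resting minusFoxp3 cells 17 rose and 21 fell, where 19.6% of all genes were called higher and 18.3% lower. Il23r and Il12rb1, receptor chains for IL-23 and IL-12, rose by 4.86 ± 0.37 and 2.46 ± 0.12 on the log2 scale (edgeR, adjusted p = 1.64e-11 and 3.23e-15). Usp18, a brake on type I interferon signals, had a log2 fold change of -2.31 ± 0.19 and the interferon-induced Ifit3 one of -1.67 ± 0.22 (edgeR, adjusted p = 7.65e-11 and 6.08e-07). All 4 interferon receptor genes were called, 1 higher and 3 lower, and of the 12 STAT-responsive genes 2 rose and 6 fell. None of the 5 listed SOCS box ligase partners was called by edgeR in any comparison given here.

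With Foxp3 restored over days 3 to 28, 7 listed genes rose and 1 fell in resting cells, where 4.73% of all genes were called. Il2rb and Il2ra, the IL-2 receptor beta and alpha chains, rose by 1.21 ± 0.10 and 1.15 ± 0.10 on the log2 scale (edgeR, adjusted p = 3.36e-06 and 7.29e-06). Pim1, a STAT5-induced kinase gene, rose by 0.93 ± 0.15 (edgeR, adjusted p = 0.00127), while its relative Pim2 fell by 0.48 ± 0.09 (edgeR, adjusted p = 0.00368). In active cells, where 6.22% of all genes were called, 13 rose and 2 fell, among them Il21r at 1.19 ± 0.12 and Il6st, the gp130 chain, at 1.03 ± 0.17 (edgeR, adjusted p = 9.97e-06 and 0.00108). Il2rb responded less in active than in resting cells, by a log2 value of -1.14 ± 0.14 in the test of the difference (edgeR, adjusted p = 1.59e-05). In active GFP Treg cells against minusFoxp3 day 0, 15 rose and 2 fell (5.21% and 4.79% of all genes), with Il21r at 2.76 ± 0.26 and Il23r at -3.88 ± 0.33 (edgeR, adjusted p = 1.89e-06 and 8.89e-07). Between thymic and active WT cells 16 of 60 tested genes rose in the thymus and 14 fell (9.22% and 13.8% of all genes), with Ifngr2 at 2.21 ± 0.15 and Ifit1 at 2.29 ± 0.22 (edgeR, adjusted p = 9.08e-07 and 1.24e-05). Il12rb1 was lower in the thymus, at 0 to 9.85 CPM against 78.5 to 209 CPM, with a log2 fold change of -5.21 ± 0.98 (edgeR, adjusted p = 0.00204). Il23r and Il9r, also called lower, had no read in the 3 thymic WT libraries, which allows up to 0.106 CPM, and lay at 27.2 to 43.3 CPM and 5.89 to 8.23 CPM in active WT libraries. By edgeR none of the listed genes was called in the thymic, active or infant degron comparisons. There 58, 59 and 58 were tested and 0%, 0% and 0.0185% of all genes were called.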

How the data were processed

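Bulk RNA-seq (SMART-Seq v4) of sorted mouse cells was deposited as raw gene counts, 1 table a library. Per the study's methods and the file headers, reads were aligned with STAR, and the authors counted read pairs per gene name with featureCounts 2.0.3 on a GENCODE annotation of GRCm39, without strand. The submitters' processing notes name Bowtie2, featureCounts, DESeq2 and mm39. The 20 degron tables were counted with a mapping quality filter and the other 44 without. Counts from overlapping or antisense genes cannot be told apart; Gm17040, antisense to Cish, reached 1.06 CPM.

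Groups came from the labels. For the 12 adult degron libraries the library name in the header decided the file, because the recorded attachment gives the other genotype. CPM are counts scaled to library totals. Tests used edgeR 4.0.16 (quasi-likelihood, TMM, R 4.3.3) on genes with a mean count of at least 10, with Benjamini-Hochberg adjustment over all genes tested and a threshold of 0.05. The fits used the libraries of 1 degron set, the 12 adult degron libraries, the 22 libraries of 1 state, or all 44 libraries for comparisons between states. The study used DESeq2, run here as an alternative (1.42.0). Other alternatives were no filter, RLE factors, other libraries in the fit, a replicate block, the recorded attachment and leaving out each library. The scripts were tested on simulated data. The members, the pathway and marker lists and the tests were chosen with earlier results of these data known. Named genes were the 8 members, Foxp3, and, per comparison, pathway genes among the 3 called in each direction with the largest change and a mean count of at least 100. Genes named as most alike were the 5 with the highest Pearson r over the 22 group means of log2(CPM + 0.1). Resting degron cells were not analysed here.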

Additional observations from a re-analysis of the deposited data

Results flagged for a closer look

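Socs2 differed between GFP Treg and minusFoxp3 cells in its active against resting change. The log2 value of the difference was -2.42 ± 0.32 (edgeR quasi-likelihood test, adjusted p = 1.61e-05), from 1.90 in minusFoxp3 cells and -0.52 in GFP Treg cells, and it was negative with each of 24 libraries left out. The comparison was chosen after the values were seen.

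Socs7 stood at 8.08 CPM in infant titled WT replicate 1, apart from 7.28 to 7.36 CPM in the other 3 libraries of that group, a gap of 0.899 of the group's range. This was the 1 flag in 16 such group checks, and chance gives a flag in about 1 of 20 such checks.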

How the results depend on the processing

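Of 315 counts of called members under the alternatives, 290 stayed within 1.5 times the reported count. Apart from the infant fit without titled WT replicate 4, the shares of all genes called under the alternatives are not given here. The counts below therefore do not show whether the family or the whole call rate moved. Without the filter on low counts, the members called were 1 for infant degron cells, 1 for resting day 3, 2 for resting days 3 to 28 (Cish and Socs5), 1 for active day 7, 2 for active days 3 to 28 (Socs2 and Socs3), 2 for active GFP Treg against plusFoxp3 day 28 and 2 for the difference between the states in the Foxp3 effect (Cish and Socs3). DESeq2 called 2 for infant degron cells, 1 for active day 7, 1 for active days 3 to 28, 2 for active GFP Treg against plusFoxp3 day 28 and 1 for the difference between the states. In the fit of the compared groups alone, 1 was called for resting day 3 (Socs2) and 1 for the difference between the states (Cish). With the replicate number as a block, 1 was called for active day 7 and 1 for active days 3 to 28 (Socs3 in both), and 1 for the difference between the states (Cish); the block moved no other count of called members by over 1.5 times. Deviations of same-numbered libraries correlated by -0.163 to 0.102 in the degron sets. The range was -0.187 to 0.442 (median 0.0413) in the active and -0.0454 to 0.371 (median 0.104) in the resting reversible and GFP Treg sets. No label says what same-numbered libraries share. What lies behind these correlations and the shifts in called members was not tested.

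With 1 library left out, the count of called members ranged from 0 to 3 for infant degron cells, from 0 to 1 for resting day 0, active day 7 and the difference between the states, from 0 to 2 for active days 3 to 28 and from 1 to 2 for active GFP Treg against plusFoxp3 day 28. A lone library left in a group is assumed to vary like the other groups. With the recorded file attachment, the log2 fold changes reversed to 0.24 for Socs1 in thymic and to 0.49 for Cish and 0.71 for Socs3 in active degron cells, since the attachment swaps the genotypes. Leaving out 1 library turned the sign of values near 0, in ranges of -0.094 to 0.12 for Socs3 over resting days 3 to 28, and of -0.049 to 0.072 for Cish and -0.029 to 0.075 for Socs1 over active days 3 to 28. With TMM library sizes, 6 of 224 group levels moved by over 1 SD. The groups of 2 libraries and the low counts of Socs5 and Socs7 (from 77 and 28 reads) limit the precision.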

Other observations

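Over the 22 group means of the reversible and GFP Treg libraries, with 12399 genes ranked, the genes most alike Socs2 in log2 CPM were Cradd (Pearson r = 0.983), Fancd2 (0.979), Serpinb1a (0.978), Eif4ebp1 (0.976) and Lingo4 (0.971). Cradd lies 61.2 kb from Socs2 on chromosome 10. Those most alike Socs1 were Slc49a4 (r = 0.960), Bmyc (0.947), Rcn1 (0.945), Capn3 (0.944) and Cyp2d22 (0.944). Those most alike Cish were Gzmb (r = 0.919), which encodes granzyme B, Calr (0.909), Acot7 (0.906), Gcnt1 (0.903) and Orai3 (0.901), and those most alike Socs3 were Ttc7 (r = 0.869), Slc2a1 (0.846), which encodes the glucose transporter GLUT1, St6gal1 (0.836), Mtmr14 (0.835) and Xpc (0.834). Within the family, Socs1 and Socs2 ran opposite (r = -0.864), as did Socs3 and Socs7 (r = -0.726), whereas Socs1 with Socs3 (r = 0.580) and Cish with Socs2 (r = 0.501) ran together. These are descriptions over groups that share the split into active and resting cells.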
